A study of Mus musculus with 6 samples.

Results

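Megalin (Lrp2), its relatives in the low-density lipoprotein (LDL) receptor family, the lipoprotein lipases and their ligand apolipoprotein E were followed in the embryonic mouse cortex with and without the Hippo kinases Lats1 and Lats2. The 9 genes were Lrp2, Lrp1, Lrp1b, Lrp4, Lrp8 and Vldlr among the receptors, Lipg and Lpl among the lipases, and Apoe, out of 22180 genes with a row of their own in the table. Each gene was read from rows annotated with its symbol alone, and Lpl, with 2 such rows, from the row with the higher mean. They were chosen by their family and by the arrays themselves, knowing the difference of Lrp2 and Lipg between double knock-out (DKO) and control, so the differences of all 9 are given as a description, without a test. All 9 passed the filter on dim genes, a mean log2 value of at least 5.02 over the arrays.

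DKO cortices carried Lats1F/F;Lats2F/F;Nestin-Cre, that is, loxP-flanked alleles of both kinase genes and a Cre transgene under the Nestin promoter, which acts in neural progenitors and the cells they give rise to. Vessels, blood, microglia and meninges arise from other lineages. The reference cortices were labelled control, and the sources used here give neither their alleles nor whether they carried the Cre transgene. Each of the 3 DKO and 3 control samples was the untreated cortex of a separate embryo at E12.5, hybridised to 1 whole-transcript array. Values are log2 signals as deposited, so that a difference of 1 is a 2-fold change of signal.

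LDL receptor family proteins are endocytic receptors of the cell surface that take up lipoproteins and many other ligands, and several of them also pass on signals. Megalin lies on the apical side of the forebrain neuroepithelium, where it takes part in the handling of Shh and Bmp4, and mice without it have forebrain midline defects. Vldlr and Lrp8 are the receptors for reelin, the secreted protein that guides the layering of cortical neurons. Lipases of the lipoprotein lipase family act outside the cell on the lipids of circulating lipoproteins, and Apoe is a lipoprotein component that the receptors bind.

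As a check of the samples, Lats1 had 7.82, 7.82 and 7.74 in DKO cortex, against 8.81, 8.34 and 8.98 in control cortex, a log2 difference of -0.91 ± 0.14 (SE, limma adjusted p = 0.0189). Lats2 differed by 0.24 ± 0.10 (SE, limma adjusted p = 0.285), and the sources used here do not say where its probes lie relative to the deleted part. The Lats1 call was lost without control 1 (limma adjusted p = 0.0809), control 3 (0.0571), DKO 1 (0.0875) or DKO 3 (0.0811). Array medians lay between 5.94 and 5.97, and correlations between arrays between 0.978 and 0.994. Cortical markers were well represented. The progenitor factor Lhx2 averaged 10.73 ± 0.07 in DKO and 10.90 ± 0.03 in control cortex, and the neuronal gene Dcx 10.13 ± 0.06 in DKO and 10.32 ± 0.02 in control cortex (SD, n = 3 each). Of 9 tested cortical markers 8 had a lower mean in DKO, where 60.2% of all genes tested did. For 7 of the 9 every DKO array lay below every control array, where 13.4% of all genes showed this.

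Lrp2, which encodes megalin, stood at 8.01, 7.92 and 7.84 in the 3 DKO cortices, against 5.50, 5.74 and 5.54 in the 3 control cortices. Every DKO array lay above every control array, and the gap of 2.10 between the nearest arrays of the groups was wider than the range within either group (0.17 in DKO, 0.24 in control). The group means were 7.92 ± 0.08 in DKO and 5.59 ± 0.13 in control cortex (SD, n = 3 each), a log2 difference of 2.33 ± 0.08 (SE) or 5.02-fold. Among the 16724 genes tested this difference ranked 2 from the top. The control values lay not far above the limit for dim genes, and without a detection call it was not tested whether they exceeded background.

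Leaving out any 1 array kept the Lrp2 difference between 2.28 and 2.40. The tested genes nearest to Lrp2 on the chromosome differed little, and genes that were not tested were passed over. The 3 nearest tested protein-coding genes on each side, a choice made after values were seen, were Stk39, Cers6 and Spc25 on one side and Bbs5, Klhl41 and Fastkd1 on the other. Their log2 differences ran from -0.18 (Spc25) to 0.11 (Klhl41). By the limma test over all genes 0 of the 6 passed, where 1.72% of all genes tested did, and their lowest unadjusted p was 0.0530.

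**Figure D1:**
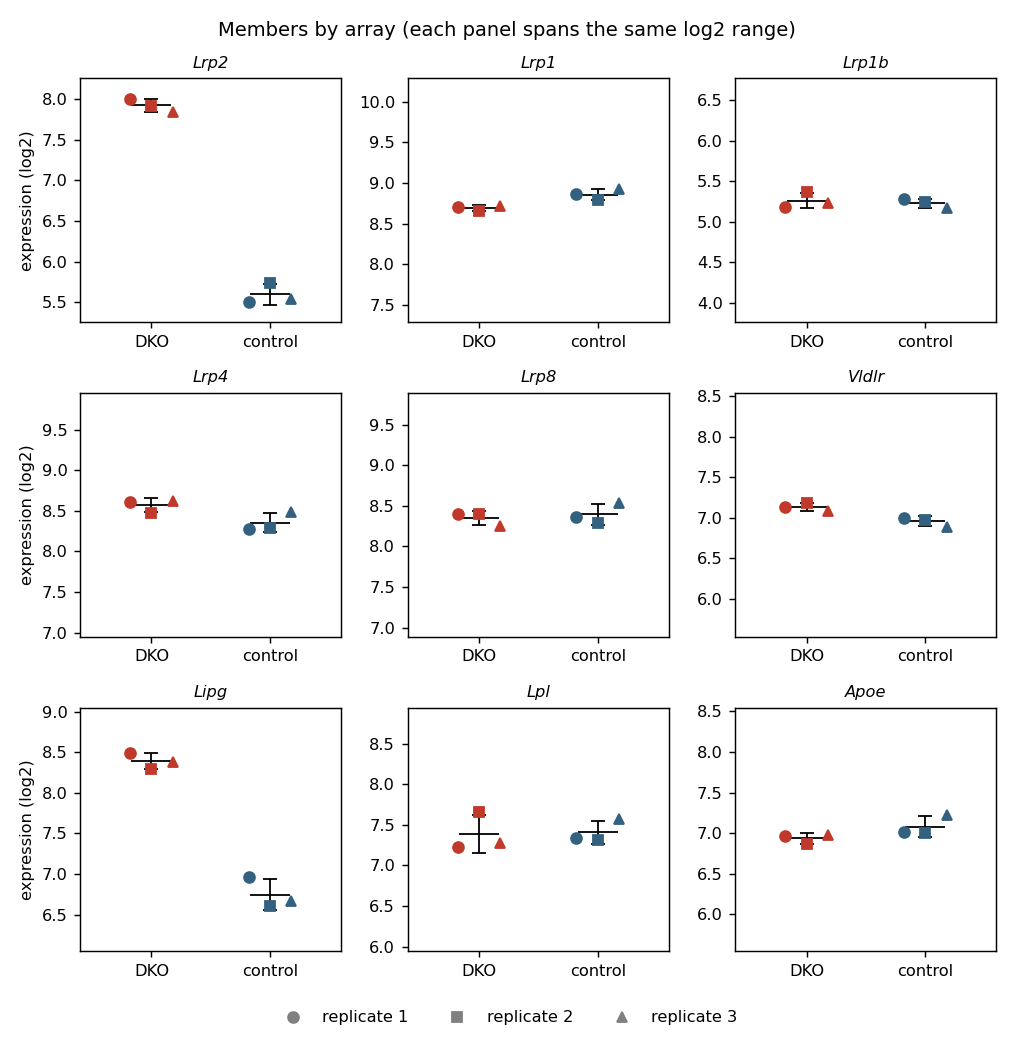
Log2 expression of the 9 genes in each array, DKO in red and control in blue, with marker shapes for the replicate numbers and bars for the mean and SD of 3 arrays. Panels share the length but not the position of their vertical axis. Lrp2 (2.33) and Lipg (1.64) stand clear of their controls, and the other 7 genes differ by at most 0.22.

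The sequence before the Lrp2 start site is shown because Lrp2 had the largest difference of the family, beside that of Lrp1, its close relative of similar build whose level differed little. Both come from RefSeq (GRCm38.p6), run 5′ to 3′ on the gene's own strand, here the minus strand, and cover the 250 bases before the annotated start. They lie at chr2:69586030-69586279 for Lrp2 and chr10:127621149-127621398 for Lrp1. Capitals mark the GC box, GGGCGG or its reverse complement CCGCCC.
Lrp2: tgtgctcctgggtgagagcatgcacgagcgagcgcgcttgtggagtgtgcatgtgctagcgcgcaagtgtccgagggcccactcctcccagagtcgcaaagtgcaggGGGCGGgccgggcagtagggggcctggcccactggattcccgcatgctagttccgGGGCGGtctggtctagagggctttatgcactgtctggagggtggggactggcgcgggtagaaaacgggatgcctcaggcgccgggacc
Lrp1: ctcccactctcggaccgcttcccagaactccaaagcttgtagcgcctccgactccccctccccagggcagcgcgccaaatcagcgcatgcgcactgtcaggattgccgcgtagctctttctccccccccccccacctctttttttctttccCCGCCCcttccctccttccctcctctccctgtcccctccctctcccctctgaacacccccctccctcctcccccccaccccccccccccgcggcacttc
Lrp2 held 2 GC boxes, which begin 143 and 88 bases before the start, and Lrp1 held 1, which begins 99 bases before it. Of 32851 promoter windows of this length in the table, 32.7% held a GC box on either strand. The core of the site bound by TEAD factors, the DNA-binding partners of YAP and TAZ, was searched as CATTCC and GGAATG, and the AP-1 site as TGACTCA and TGAGTCA. Neither was present in the window of Lrp2 or of Lrp1, and 12.6% and 4.46% of all windows held them. The table had 10 windows for 5 of the 9 genes (Lrp2, Lrp1, Lrp8, Vldlr and Apoe), and 2 of these windows, 1 of Apoe and 1 of Lrp8, held the TEAD core. A match or its lack describes these letters only.

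The other receptors differed little between the groups. Lrp1, a large scavenger receptor that clears Apoe-bearing particles, protease-inhibitor complexes and thrombospondin, had 8.71, 8.65 and 8.72 in DKO cortex, against 8.86, 8.79 and 8.92 in control cortex. The DKO arrays all lay below the control arrays, by a narrow gap of 0.07, and the mean difference was -0.17 ± 0.06 (SE), or 1.12-fold lower in DKO. Lrp1b, its closest relative in structure, had 5.19, 5.36 and 5.23 in DKO and 5.28, 5.24 and 5.16 in control cortex. Its groups overlapped, and its difference of 0.04 ± 0.07 (SE) turned to -0.02 without DKO 2. The values of Lrp1b lay close to the limit for dim genes.

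Lrp4, the receptor for agrin at the neuromuscular junction and a modulator of Wnt and BMP signalling, had 8.61, 8.47 and 8.62 in DKO cortex, against 8.28, 8.29 and 8.49 in control cortex. DKO 2 lay just below control 3, so the groups overlapped by 0.02, with a difference of 0.22 ± 0.08 (SE). Vldlr had 7.13, 7.18 and 7.08 in DKO cortex, against 7.00, 6.98 and 6.89 in control cortex. Here all DKO arrays lay above all control arrays, by a gap of 0.08, and the difference was 0.17 ± 0.06 (SE). Lrp8, the second reelin receptor, had 8.39, 8.40 and 8.25 in DKO and 8.36, 8.29 and 8.53 in control cortex, with overlapping groups and a difference of -0.05 ± 0.08 (SE). Leaving out control 2 gave -0.10, leaving out control 3 gave 0.02 and leaving out DKO 3 gave 0.0036, so its direction rests on single arrays.

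Lipg, which encodes endothelial lipase, a secreted enzyme that acts mainly on the phospholipids of high-density lipoprotein, stood at 8.49, 8.29 and 8.39 in DKO cortex. Control cortices had 6.96, 6.61 and 6.67. No arrays overlapped, and the gap of 1.33 was wider than the range within DKO (0.20) or control cortex (0.36). The means were 8.39 ± 0.10 in DKO and 6.75 ± 0.19 in control cortex (SD, n = 3 each), a log2 difference of 1.64 ± 0.10 (SE) or 3.12-fold, which ranked 13 from the top of all genes tested. It stayed between 1.57 and 1.75 when any 1 array was left out.

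The 6 nearest tested protein-coding genes around Lipg, taken after values were seen, were Mbd1, Myo5b, Acaa2, Rpl17, BC031181 and Dym. Their log2 differences lay between -0.09 (Mbd1) and 0.22 (Rpl17). By the limma test over all genes 0 of the 6 passed, where 1.72% of all genes tested did, with the lowest unadjusted p (0.0296) for Rpl17.

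Lpl, lipoprotein lipase, which releases fatty acids from triglyceride-rich particles, had 7.23, 7.66 and 7.28 in DKO cortex, against 7.34, 7.32 and 7.57 in control cortex. DKO 2 held the highest value and DKO 1 the lowest, the groups overlapped, and the difference was -0.02 ± 0.12 (SE). It was -0.16 without DKO 2 and 0.06 without control 3. A dimmer second row of Lpl, with a mean of 4.13 and so under the limit, had a difference of 0.16. Apoe had 6.96, 6.86 and 6.98 in DKO cortex, against 7.01, 7.00 and 7.23 in control cortex. The DKO arrays lay below the control arrays by only 0.02, with a difference of -0.15 ± 0.08 (SE), and -0.07 without control 3.

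In the limma fit over all genes 2 of the 9 genes, Lrp2 and Lipg, passed the threshold, where 1.72% of all genes tested did. Both were higher in DKO, as were 1.36% of all genes, and 0 were lower, as were 0.359%. The groups did not overlap, with DKO above, for 3 genes (Lrp2, Lipg and Vldlr), where 8.22% of all genes showed this, and with DKO below for 2 (Lrp1 and Apoe), where 13.4% did. Since the choice of genes used this comparison, nothing is read from these counts. The median difference of the 9 genes was 0.04, beside -0.03 over all genes tested.

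**Figure D2:**
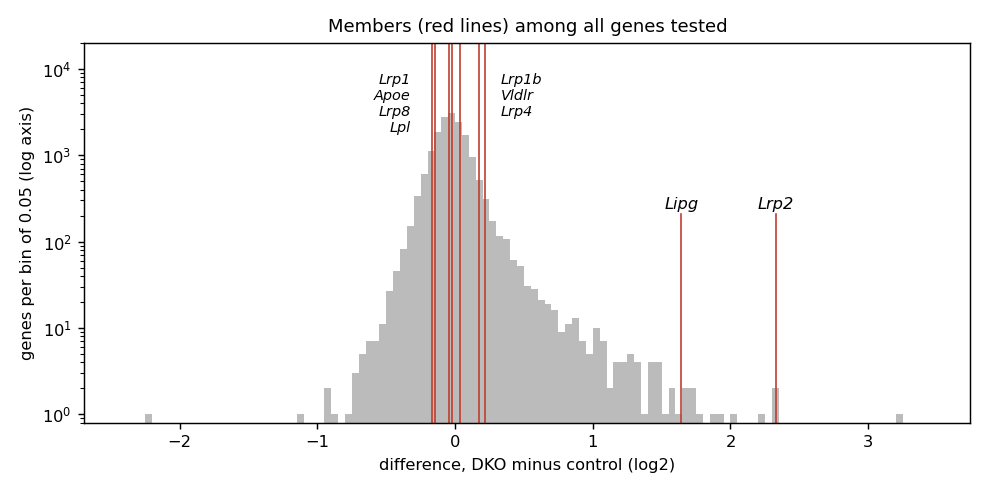
Histogram of the log2 difference, DKO minus control, of the 16724 genes tested (grey, genes per bin on a log axis) with the 9 genes as red lines. Lrp2 and Lipg lie in the far upper tail, at ranks 2 and 13, and the other 7 lie within the bulk of the distribution.

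Other members of the LDL receptor family held no call. Of 10 listed, 9 had a row and were tested, 0 rose and 0 fell by limma's adjusted p, and 2 had an unadjusted p under 0.05, both with a lower mean in DKO. Of all genes tested 15.6% had an unadjusted p under 0.05 (6.39% with a higher and 9.18% with a lower mean in DKO), and the like counts of the lists that follow stand beside these shares. The sorting receptor gene Sorl1 had a log2 difference of -0.36 ± 0.15 (SE, limma adjusted p = 0.296), and Lrp3 of -0.19 ± 0.07 (SE, limma adjusted p = 0.216). Lrp5 and Lrp6 encode the Wnt co-receptors. Lrp5 differed by -0.17 ± 0.08 (SE, limma adjusted p = 0.371), Lrp6 by 0.0012 ± 0.08 (SE, limma adjusted p = 0.995) and Lrp11, a transmembrane relative, by -0.14 ± 0.06 (SE, limma adjusted p = 0.327). The list had a median of -0.17, with a lower mean in DKO for 8 of 9, and for all 9 after a repeated quantile normalization, where 60.2% of all genes tested had a lower mean.

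The proteins that work with megalin showed no call either. Of 14 tested partners and adaptors, 0 rose and 0 fell by limma, and 2 had an unadjusted p under 0.05. Cubn, which encodes the co-receptor cubilin, averaged 5.50 ± 0.21 in DKO and 5.40 ± 0.13 in control cortex (SD, n = 3 each), close to the limit for dim genes. Lrpap1, the chaperone that keeps newly made receptors of the family from binding ligands too early, differed by -0.13 ± 0.07 (SE, limma adjusted p = 0.429). Dab2, an endocytic adaptor that binds the megalin tail, had a difference of 0.29 ± 0.16 (SE, limma adjusted p = 0.430). Among all alternatives it passed only without DKO 2 (0.51, limma adjusted p = 0.0197). Myo6, the myosin that moves endocytic vesicles inward, had -0.37 ± 0.15 (SE, limma adjusted p = 0.291) and passed only without control 2 (-0.56, limma adjusted p = 0.0420). The endosomal chloride transporter Clcn5 differed by 0.21 ± 0.09 (SE, limma adjusted p = 0.316). Over the whole list the median came to -0.04.

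Several genes for proteins that megalin binds rose. Of 13 tested ligands and linked carriers, 5 rose by limma's adjusted p (Clu, Mt3, Mt2, Mt1 and Ttr), where 1.36% of all genes tested rose, 0 fell and 8 did not pass. The list was drawn up with results of these data known, so the count tests nothing about megalin ligands. Mt1, Mt2 and Mt3 are 1 gene family, and Ttr is also a choroid plexus marker in a list below. The list median was 0.19, and 6 had an unadjusted p under 0.05, 1 of them with a lower mean in DKO. That gene, named after its value was seen, was Selenop, which encodes a selenium carrier that megalin takes up in the kidney. It had 6.46, 6.06 and 6.59 in DKO cortex, against 6.82, 6.87 and 6.77 in control cortex. All DKO arrays lay below the controls, and the difference was -0.45 ± 0.13 (SE, limma adjusted p = 0.137). Clu encodes clusterin, also called apolipoprotein J, a secreted chaperone and lipoprotein component. It had 8.02, 7.96 and 8.21 in DKO cortex, against 6.89, 6.75 and 6.56 in control cortex. All DKO arrays lay above the controls, by 2.52-fold on average, with a log2 difference of 1.33 ± 0.10 (SE, limma adjusted p = 4.80e-04).

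The metallothioneins, small metal-binding proteins that megalin takes up in the kidney, rose as well. Mt3 averaged 9.59 ± 0.13 in DKO and 8.64 ± 0.05 in control cortex (SD, n = 3 each), with a log2 difference of 0.95 ± 0.08 (SE, limma adjusted p = 6.52e-04). Mt2 rose by 1.07 ± 0.14 (SE, limma adjusted p = 0.00733) and Mt1 by 0.73 ± 0.12 (SE, limma adjusted p = 0.023). The Mt1 call was lost without control 1 (limma adjusted p = 0.0902), control 2 (0.0642), control 3 (0.0967) or DKO 1 (0.0974). It was also lost with the replicate number as a block (0.0541).

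Ttr, which encodes transthyretin, the carrier of thyroid hormone and retinol-binding protein, had 8.84, 10.25 and 8.33 in DKO cortex, against 6.74, 7.21 and 6.74 in control cortex. DKO 2 stood far above the other arrays, and the log2 difference was 2.24 ± 0.41 (SE, limma adjusted p = 0.0371). This call was lost without control 1 (limma adjusted p = 0.132), control 2 (0.0749), control 3 (0.141) or DKO 1 (0.106). Bmp4, the morphogen that megalin binds in the forebrain, differed by 0.19 ± 0.15 (SE, limma adjusted p = 0.615). Shh was too dim to be tested.

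Of 11 tested ligands and partners of Lrp1 and Lrp4, 3 rose by limma, where 1.36% of all genes tested rose, and 0 fell. An unadjusted p under 0.05 was found for 6, and the median was 0.23. This list too was drawn up with results of these data known, so the count tests nothing about it. Thbs1, called here, had the largest rise of all genes tested. Thbs1, which encodes thrombospondin 1, a matrix protein cleared through Lrp1, had 10.86, 10.62 and 10.73 in DKO cortex, against 7.66, 7.43 and 7.42 in control cortex, a difference of 3.24 ± 0.09 (SE, limma adjusted p = 2.83e-06). A2m, the protease inhibitor alpha-2-macroglobulin and a classical Lrp1 ligand, had 6.35, 6.34 and 6.49 in DKO and 5.60, 5.90 and 5.58 in control cortex, and rose by 0.70 ± 0.10 (SE, limma adjusted p = 0.00859). Sostdc1, a secreted antagonist that binds Lrp4, rose by 0.47 ± 0.09 (SE, limma adjusted p = 0.0407). The Sostdc1 call was lost without control 1 (limma adjusted p = 0.157), control 3 (0.148), DKO 1 (0.140), DKO 2 (0.0937) or DKO 3 (0.0701). Plau, the protease urokinase, differed by 0.29 ± 0.08 (SE, limma adjusted p = 0.115). Hspg2, which encodes perlecan and was named after its value was seen, had 0.39 ± 0.11 (SE, limma adjusted p = 0.138). Among all alternatives it passed only without DKO 2 (0.52, limma adjusted p = 0.0119).

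**Figure D3:**
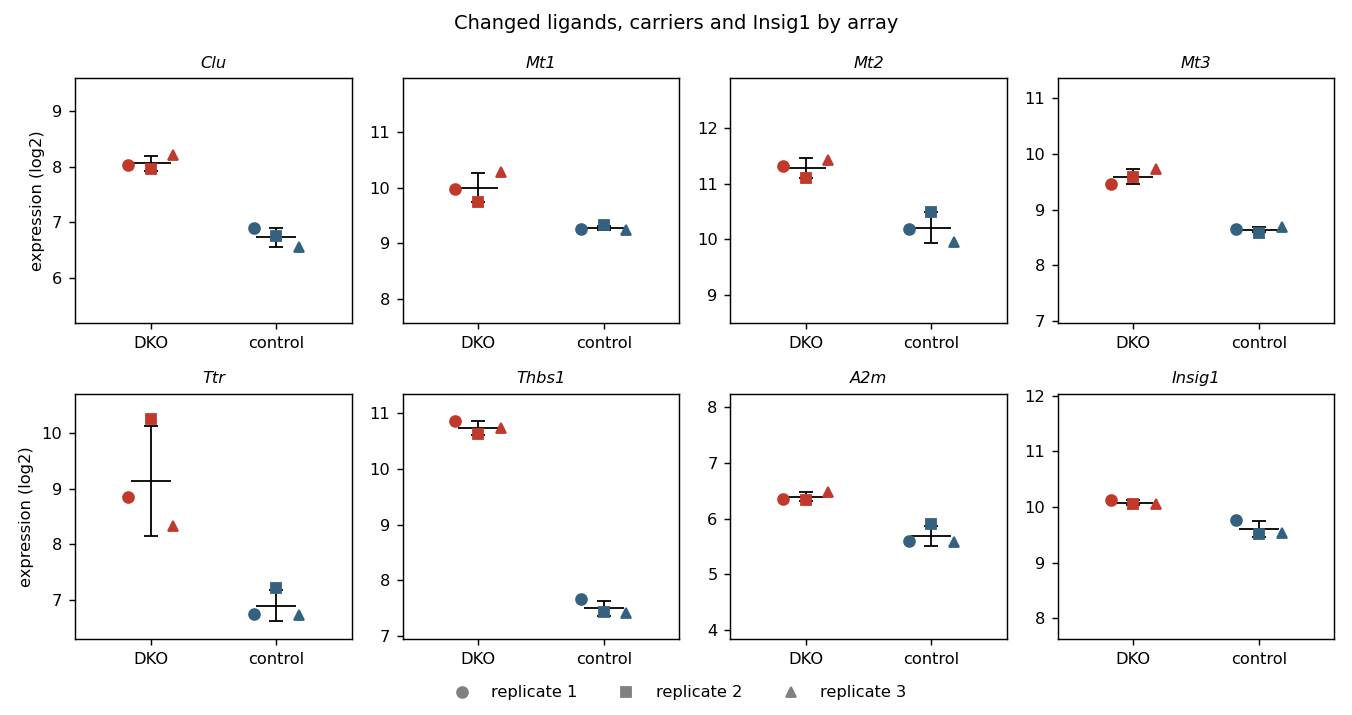
Log2 expression by array of 7 changed genes for ligands or carriers of the receptors and of Insig1, DKO in red and control in blue, with bars for the mean and SD of 3 arrays. In each panel all 3 DKO arrays lie above all 3 control arrays. Ttr has the widest spread, with DKO 2 at 10.25.

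Downstream of Vldlr and Lrp8 the reelin pathway held no call. Of 14 tested genes 0 rose and 0 fell by limma, 2 had an unadjusted p under 0.05, and the median was -0.04. Reln itself differed by -0.15 ± 0.07 (SE, limma adjusted p = 0.373), and Dab1, the adaptor that both receptors signal through, by -0.10 ± 0.07 (SE, limma adjusted p = 0.561). Socs7, which takes part in the removal of phosphorylated Dab1, had -0.20 ± 0.07 (SE, limma adjusted p = 0.244). The adaptor gene Crkl had -0.20 ± 0.07 (SE, limma adjusted p = 0.255), Itgb1, an integrin subunit, 0.21 ± 0.09 (SE, limma adjusted p = 0.330) and the kinase gene Src -0.13 ± 0.06 (SE, limma adjusted p = 0.342).

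Partners and regulators of the lipases were likewise without a call. Of 11 tested, 0 rose and 0 fell by limma, 2 had an unadjusted p under 0.05, and the median was -0.06. Gpihbp1, the endothelial protein that anchors lipoprotein lipase in capillaries, differed by -0.12 ± 0.11 (SE, limma adjusted p = 0.660), and Angptl4, a secreted inhibitor of the enzyme, by -0.06 ± 0.08 (SE, limma adjusted p = 0.753). Pcsk6, a proprotein convertase, had 0.36 ± 0.09 (SE, limma adjusted p = 0.114), Apoc2, the activator of lipoprotein lipase, -0.26 ± 0.11 (SE, limma adjusted p = 0.300), Sel1l, needed for its maturation, 0.15 ± 0.06 (SE, limma adjusted p = 0.326) and Angptl8 -0.14 ± 0.07 (SE, limma adjusted p = 0.380).

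Among 12 tested genes for other lipases and fatty acid uptake, 0 rose and 0 fell by limma, 1 had an unadjusted p under 0.05, and the median was -0.02. That gene was Slc27a1, a fatty acid transporter, with 7.56, 7.77 and 7.52 in DKO cortex, against 8.11, 7.94 and 8.04 in control cortex. Its difference was -0.41 ± 0.08 (SE, limma adjusted p = 0.0548), and it fell past the threshold without DKO 2 (-0.49, limma adjusted p = 0.0216) and with a trended variance (0.0278). Lipe, hormone-sensitive lipase, differed by -0.05 ± 0.06 (SE, limma adjusted p = 0.719), Fabp3, a fatty acid binding protein, by 0.06 ± 0.07 (SE, limma adjusted p = 0.756) and the transporter gene Slc27a4 by -0.08 ± 0.08 (SE, limma adjusted p = 0.690).

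The apolipoproteins and lipid efflux genes, 13 tested, held 0 that rose and 0 that fell by limma, 2 with an unadjusted p under 0.05, and a median of -0.10. Apoa1, the main protein of high-density lipoprotein, differed by -0.25 ± 0.08 (SE, limma adjusted p = 0.181). The efflux transporter genes Abcg1 and Abca1 differed by -0.23 ± 0.06 (SE, limma adjusted p = 0.129) and 0.07 ± 0.07 (SE, limma adjusted p = 0.703), and Abcg4 by -0.17 ± 0.09 (SE, limma adjusted p = 0.433). For Nr1h3, a nuclear receptor for oxysterols, the difference was -0.16 ± 0.10 (SE, limma adjusted p = 0.5).

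Of 22 tested genes of sterol synthesis and the SREBP pathway, which controls the cell's own cholesterol supply, 1 rose by limma and 0 fell. Of all genes tested 1.36% rose. An unadjusted p under 0.05 was found for 10 of the 22, 9 of them with a higher mean in DKO. The gene that rose was Insig1, which retains the SREBP precursor in the endoplasmic reticulum and is itself an SREBP target. It had 10.13, 10.06 and 10.06 in DKO cortex, against 9.78, 9.52 and 9.53 in control cortex, a rise of 0.47 ± 0.08 (SE, limma adjusted p = 0.0272). Its call was lost without control 2 (limma adjusted p = 0.0842), control 3 (0.112), DKO 1 (0.114), DKO 2 (0.0566) or DKO 3 (0.0837). Hmgcs1, the enzyme that makes HMG-CoA, had 0.30 ± 0.07 (SE, limma adjusted p = 0.0960), Lss, lanosterol synthase, 0.32 ± 0.09 (SE, limma adjusted p = 0.121) and Fdps, farnesyl diphosphate synthase, 0.26 ± 0.07 (SE, limma adjusted p = 0.129). Hmgcs1 and Fdps passed with a trended variance (limma adjusted p = 0.0239 and 0.0354). Srebf2, which encodes an SREBP factor, differed by 0.02 ± 0.06 (SE, limma adjusted p = 0.879), and the median of the list was 0.10.

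**Figure D4:**
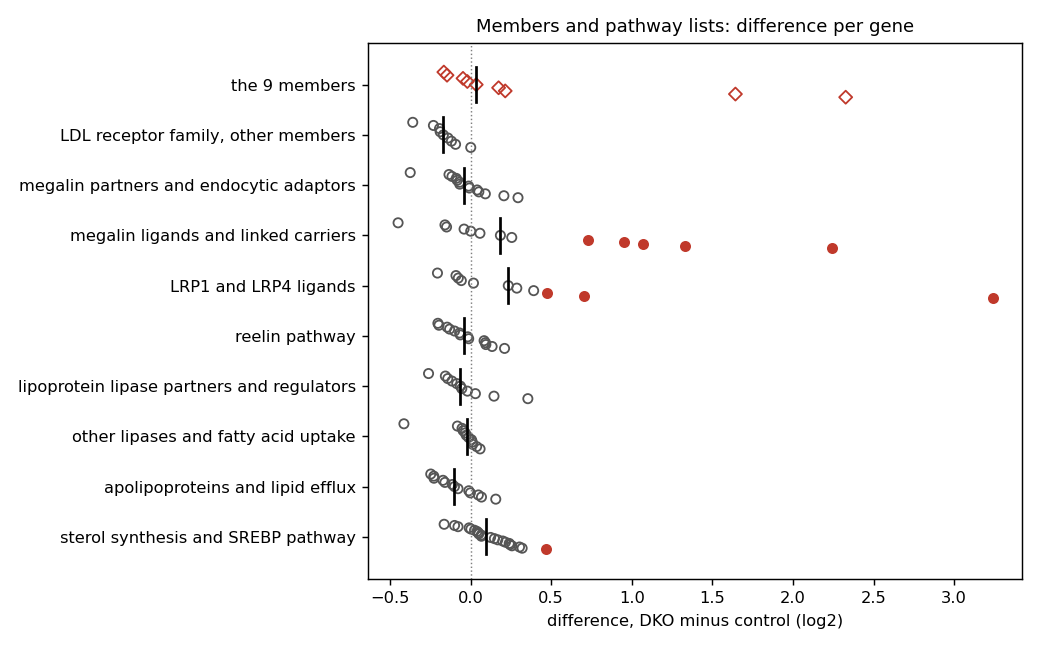
Log2 difference, DKO minus control, of each gene in the 9 pathway lists, with filled red circles for genes called by the limma fit over all genes and open circles for the rest. The 9 chosen genes are drawn as open diamonds without a test, and black bars are medians. Calls appear in the 2 ligand lists (5 and 3) and in the sterol list (1).

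Counted once, the 9 pathway lists held 119 tested genes, of which 9 rose and 0 fell by limma, beside 228 and 60 of all 16724. The lists were drawn up with results of these data known, and nothing about their content is tested by that count. The number that rose was 5 without control 3 and 5 without DKO 1.

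The cortical hem, roof plate and choroid plexus, the dorsal midline tissue beside the cortex, also make megalin, and transthyretin is the best known product of the choroid plexus. In bulk RNA more cells of a type and more RNA per cell cannot be told apart. Of 11 tested markers of these tissues 3 rose by limma (Ttr, Foxj1 and Lmx1a), where 1.36% of all genes tested rose. A higher mean in DKO was seen for 10, where 39.8% of all genes tested had one, and the median of these markers was 0.40. Their summed signal on the log2 scale was 10.49, 11.08 and 10.09 in DKO cortex, highest in DKO 2. In control cortex it was 9.52, 9.78 and 9.52. All DKO arrays lay above all control arrays, so the excess of the sum remains when DKO 2 is left out. The sum adds linear signals, so Ttr, the brightest of these markers in every DKO array (10.25 in DKO 2), weighs most in it. The part of these tissues in the Lrp2 difference was not tested.

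Lmx1a, a roof plate factor, rose by 0.47 ± 0.06 (SE, limma adjusted p = 0.00982), a call lost without control 1 (limma adjusted p = 0.0583), control 3 (0.0540) or DKO 1 (0.0508). Foxj1, a regulator of motile cilia, rose by 0.40 ± 0.06 (SE, limma adjusted p = 0.0199), a call lost without control 1 (limma adjusted p = 0.109), control 3 (0.0850), DKO 1 (0.0829), DKO 2 (0.0504) or DKO 3 (0.0644). Otx2 had 1.03 ± 0.33 (SE, limma adjusted p = 0.191) and, like Ttr, was highest in DKO 2. Rspo2 had 7.15, 6.91 and 6.81 in DKO cortex, against 6.11, 6.68 and 5.96 in control cortex (limma adjusted p = 0.100). Wnt8b had 7.65, 7.11 and 6.79 in DKO cortex, against 6.32, 6.92 and 6.58 in control cortex (limma adjusted p = 0.252). Both, like Lrp2, were highest in DKO 1 and, among controls, in control 2. Folr1 differed by 0.26, Aqp1 by 0.05 and Kl by -0.15, none of them called. The defining choroid plexus marker Clic6 lay under the limit for dim genes.

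The product of Lipg is named for endothelium, and vessel markers had lower means in DKO. Of 12 endothelial and pericyte markers, all had a lower mean in DKO, where 60.2% of all genes tested did, and 0 were called by limma. In 3 of them every DKO value was below every control value, where 13.4% of all genes showed this, and the median was -0.23. Their summed signal was 11.22, 10.73 and 11.29 in DKO cortex, against 11.46, 11.27 and 11.32 in control cortex. Cdh5, the endothelial cadherin, differed by -0.44 ± 0.14 (SE, limma adjusted p = 0.194) and Tek, an angiopoietin receptor, by -0.40 ± 0.23 (SE, limma adjusted p = 0.457). DKO 2, lowest in these markers, was also lowest of the DKO arrays in Lipg, and without it the Lipg difference was 1.69. The part of vessels in the Lipg difference was not tested.

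Microglia and macrophages, which make Apoe, had 10 tested markers with 0 calls by limma, a median of -0.14 and summed signals of 10.15, 9.91 and 10.29 in DKO cortex, against 10.23, 10.27 and 10.20 in control cortex. Trem2 differed by -0.28 ± 0.10 (SE, limma adjusted p = 0.223) and C1qc by -0.28 ± 0.09 (SE, limma adjusted p = 0.212). Aif1 and Ptprc lay under the limit for dim genes. Their part in the small Apoe difference was not tested.

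Retina and pigment epithelium, where megalin is also made, had 7 tested markers with a median of -0.17. Of these 0 rose and 1, Rlbp1, fell by 1.11 ± 0.19 on the log2 scale (SE, limma adjusted p = 0.03), where 0.359% of all genes tested fell. Rlbp1 averaged 9.04 and Dct 7.67 in control cortex. The other tested markers averaged 5.30 (Tyrp1) to 5.70 (Pmel) there, near the limit for dim genes. Whether retinal tissue was present was not tested. The Rlbp1 call was lost without control 1 (limma adjusted p = 0.103), control 3 (0.0936), DKO 1 (0.0905) or DKO 3 (0.0803). Dct differed by -0.37 ± 0.15 (SE, limma adjusted p = 0.283), and Rpe65 lay under the limit for dim genes. The meningeal (9 tested), epithelial (6), erythroid (4) and cortical (9) lists held 0 calls by limma, with medians of -0.10, -0.08, -0.14 and -0.18. Their genes with the widest differences were Zic1 (0.40) and Dcn (-0.38), Krt18 (0.30) and Krt14 (-0.25), Slc4a1 (-0.32) and Hbb-y (-0.19), and Eomes (-0.44) and Tbr1 (-0.30). The summed signal of the cortical list was 13.09, 13.13 and 13.07 in DKO cortex, against 13.26, 13.23 and 13.30 in control cortex. All DKO sums of this list thus lay below all control sums, and the reason was not tested.

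**Figure D5:**
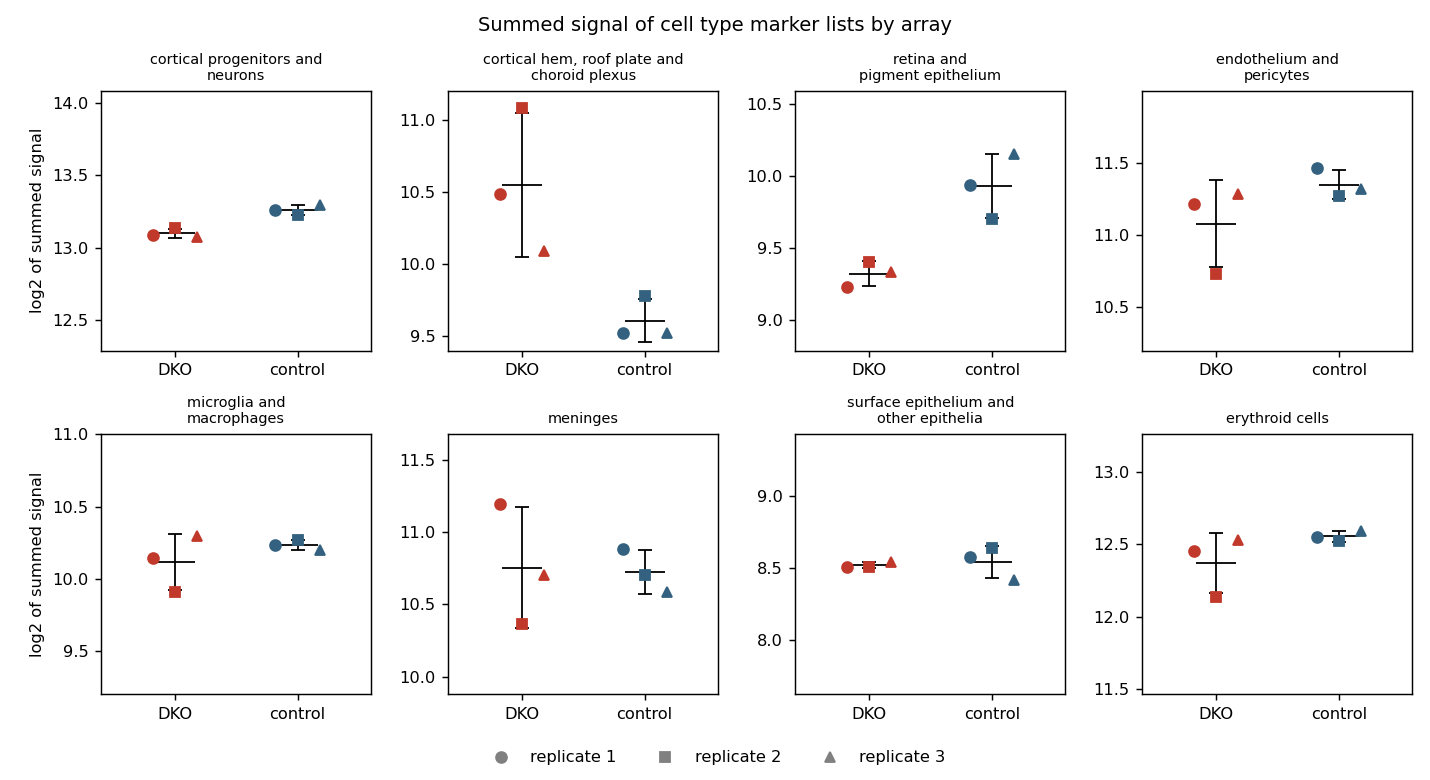
Summed signal, on a log2 scale, of 8 cell type marker lists in each array, DKO in red and control in blue, with bars for the mean and SD of 3 arrays. The hem and choroid plexus sum lies higher in all DKO arrays and is highest in DKO 2 (11.08), while DKO 2 is lowest for endothelium (10.73).

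The genes whose values followed Lrp2 most closely over the 6 arrays were Ifrd1, Ptpn14, Thbs1, Gtpbp10, Raver2 and Cdh6, with Pearson correlations from 0.993 to 0.997. Those closest to Lipg were Mbnl2, Wwc2, Thbs1, Cxcr4, Steap2 and Adamts1, with correlations from 0.994 to 0.997. Only Thbs1 is in both sets of 6. The arrays form 2 separate groups in each of these genes, so the correlations mainly restate that each gene differed between DKO and control, and they carry no test. The size of the difference varied among these genes. Ifrd1, a transcriptional co-regulator, averaged 7.57 ± 0.02 in DKO and 7.13 ± 0.02 in control cortex (SD, n = 3 each), a difference of 0.44. Ptpn14, a phosphatase that binds YAP, differed by 1.59, and Cdh6, a cadherin, by 0.79. Mbnl2, a splicing regulator, differed by 1.07 and Wwc2, a scaffold upstream of Lats, by 1.19.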

How the data were processed

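Total RNA of 6 cortices was measured on whole-transcript arrays. The authors deposited log2 values from RMA, per the submitters' processing notes, which state no version. Quantile normalization in RMA equalises the arrays, so a shift shared by every transcript is lost. Background correction could not be varied, as scanner files were not used here. Of 41345 rows, 23521 had 1 gene symbol, and the row with the highest mean stood for each of 22180 genes. Genes with a mean under the 25th percentile of one-symbol rows, 5.02, were left out, which left 16724. DKO was compared with control by limma 3.58.1 in R 4.3.3 (lmFit, eBayes, two-sided), with no covariate and Benjamini-Hochberg adjustment over all genes tested at a threshold of 0.05. SE is that of this fit. The labels name no batch, and the number of arrays limits the precision.

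The 9 genes and all lists were chosen with earlier results of these data known. The genes named were the 9, Lats1 and Lats2, Thbs1, a fixed set of partners, the called genes and up to 4 with the smallest p of each pathway list, the called and the 2 most different genes of each marker list, and the 6 most correlated with Lrp2 and Lipg. Lhx2, Dcx, Lrp6, Bmp4, Shh, Hspg2, Selenop and the chromosomal neighbours were named after values were seen. So were the markers Rspo2, Wnt8b, Folr1, Aqp1 and Kl and the dim markers Clic6, Rpe65, Aif1 and Ptprc. Of 142 pathway genes 127 had a row and 119 were tested. A further 8 lay under the limit for dim genes, and the other 15 were not analysed here. Simulated data over 16724 genes for this comparison gave back 73.2% of genes with a true log2 change of 0.5, 98.5% of those with 1 and 100% of those with 1.5. The simulated noise was independent between genes, without shifts that many genes of an array share, so these shares may be too high for the real arrays. The deviations of same-numbered arrays from their group means correlated at -0.10, 0.21 and 0.15, and those of other pairs at -0.32 to 0.24. So few values cannot settle whether the numbers pair embryos. The groups were treated as unpaired, which is an assumption. Alternatives were other filters, variance models, normalizations, row rules, a replicate block, and leaving out each array.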

Additional observations from a re-analysis of the deposited data

How the results depend on the processing

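The 14 alternatives gave differences of 2.28 to 2.40 for Lrp2 and 1.57 to 1.75 for Lipg. Leaving out an array moves a group mean by only part of that array's distance from it. Moves that are small beside the spread between embryos are therefore given in advance and test nothing. Other filters, variance models and the replicate block leave a difference of means as it is, and so does the row rule for genes with 1 row. Only the other normalizations and the left-out arrays could move Lrp2 and Lipg. Counting also the settings that cannot move a difference, the sign held in all 14 for Lrp1, Lrp4, Vldlr and Apoe. It held in 13 for Lrp1b, 12 for Lrp8 and 10 for Lpl. With 1 array left out, 121 to 260 genes rose and 11 to 54 fell, and 5 to 9 rose and 0 to 1 fell in the pathway lists. The genes that fell numbered 134 with a stricter filter and 162 with a trended variance, beside 60 as reported. In the pathway lists 1 gene, Slc27a1, fell with the stricter filter, 1 with the trended variance and 1 with a repeated quantile normalization. The cause was not tested.

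With the replicate number as a block 176 genes rose and 24 fell, and 8 rose in the pathway lists. Mt1 (limma adjusted p = 0.0541), Foxj1 (0.0575) and Rlbp1 (0.0528) lost their calls under this block, and Lats1 and the other called genes of the pathway and marker lists did not. Ttr lost its call with a robust variance (0.0943) and Sostdc1 without a filter on dim genes (0.0546). With each array centred on its median, 7 of 14 reelin pathway genes and 7 of 14 megalin partners had a higher mean in DKO, against 5 of 14 in each list as reported. Dim rows such as Lrp1b, Cubn and the control values of Lrp2 limit what can be said, since no detection call was at hand.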
